A study of Macaca fascicularis with 28 samples.

Results

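The transient receptor potential (TRP) channels described here are 10 genes: TRPA1, TRPM2, TRPM4, TRPM5, TRPM7, TRPM8, TRPV1, TRPV2, TRPV3 and TRPV4. Their members on the array were found by gene symbol, as 12 probe sets out of 52024. These stood for 8 of the 10 genes. There were 3 probe sets for TRPA1, 2 each for TRPM7 and TRPV2, and 1 each for TRPM4, TRPM5, TRPM8, TRPV3 and TRPV4. The probe sets of TRPM5 and TRPM8 took their symbol from a table of the study. That table lists genes chosen as higher in taste buds than in lingual epithelium on these same arrays, so that measured values entered their naming. TRPM2 and TRPV1 were not analysed here, since the names used matched none of their probe sets. Tongue tissue was taken by laser capture in cynomolgus macaques (Macaca fascicularis), 10 animals in all, euthanised for other purposes, and its amplified RNA was read on 28 Affymetrix arrays of the rhesus macaque genome. Taste buds (TB) of the fungiform (FG) papillae of the front of the tongue and lingual epithelium (LE) next to those papillae came from 6 animals, numbered 1 to 6. TB of the circumvallate (CV) papillae of the back of the tongue and the LE next to them came from 4 of these animals, numbers 1, 3, 4 and 5. These 20 samples, from animals aged 2.6 to 4.5 years, form the first array set. The second array set holds the top and bottom fractions of CV TB, 1 of each from 4 further animals, numbers 7 to 10, all 3 years old. Animals 3, 4 and 7 were male and the others female. The array was designed for the rhesus macaque, so that a probe can differ in sequence from the gene of the animals studied.

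TRP channels are cation channels of the cell membrane that open in response to heat, cold, irritants, calcium or receptor signalling. In the taste cells that detect sweet, umami and bitter compounds (type II cells), G protein-coupled receptors act through phospholipase C to release calcium from stores, and calcium opens TRPM5, which depolarises the cell. Several other members are best known from sensory nerve endings of the mouth and skin, where TRPM8 responds to cold and menthol, and TRPA1 to pungent irritants. Members of the TRPV branch respond to warmth, and TRPV3 and TRPV4 are known from keratinocytes.

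The arrays had median intensities of 13.57 to 16.75 units, and 37.3% to 40.8% of probe sets reached 25 units, which is taken as the level of a dim signal here, as in the methods of the study. Each tissue carried the markers of its label. The summed intensity of the 11 named type II transduction genes, a list without TRPM5, was 15303 to 25117 units in CV and FG TB against 201.3 to 656.4 units in LE. The study ranks several of these genes, GNAT3 and PLCB2 among them, as higher in TB on these same arrays. Their sum is therefore no independent check of the labels. The summed intensity of the 8 named markers of differentiated keratinocytes was 58609 to 79936 units in LE against 232.7 to 16932 units in TB. The samples are bulk tissue, so that fewer cells of a type and less RNA per cell cannot be told apart. The 8 arrays of the fractions came from other animals and were processed separately, so that a level in the fractions and a level in whole TB cannot be told apart from the array set and are not compared.

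Of the 12 probe sets, 6 reached 25 units in at least 4 of the 20 samples of the first set and were tested there. They were 1 each for TRPA1, TRPM4, TRPM5, TRPM7, TRPM8 and TRPV2. TRPM8 passed through 4 samples, all of TB, and TRPV2 through 11 samples, of which 9 were LE, so that both entered the test through the tissue in which they were high. The counts below therefore describe these probe sets, and nothing about the family is read from them. In the 8 samples of the second set, 6 probe sets were tested, 2 of them for TRPA1. The probe sets of TRPV3 and TRPV4 reached 25 units in 0 of 28 samples.

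Among the 6 members tested in CV TB against their adjacent LE, TRPM5 and TRPM8 were higher and TRPV2 was lower, where 17.3% of all 26176 tested probe sets were called higher and 18.0% lower. In FG TB against their adjacent LE, TRPM5, TRPA1 and TRPM7 were higher and TRPM4 and TRPV2 were lower, against 21.1% and 20.2% of all tested probe sets. A call is an adjusted p of at most 0.05 in limma, with the animal as a block and Benjamini-Hochberg adjustment over all tested probe sets. Between the fractions TRPM5 was higher in the top, where 1.68% of 21167 tested probe sets were called higher and 1.46% lower. TRPM5 was thus the member called in the same direction over both adjacent epithelia and in the top fraction. Changes are given as log2 differences ± standard error. Fold values compare geometric means after values under 25 units were raised to 25, and stand as "at least" where the dimmer group held such values and the ratio of arithmetic means was no smaller.

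**Figure D1:**
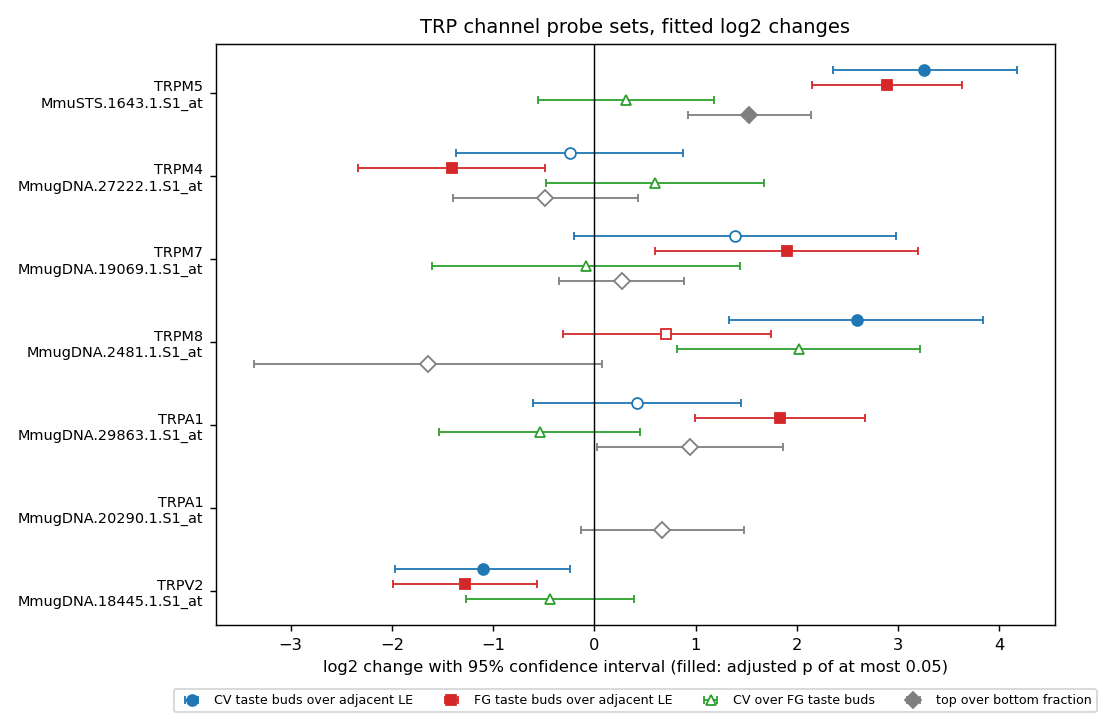
Log2 change of each tested TRP probe set (rows) in 4 comparisons, with 95% confidence intervals from limma; filled symbols have an adjusted p of at most 0.05 and open symbols do not. TRPM5 has filled symbols for CV TB over LE (3.26), FG TB over LE (2.89) and top over bottom (1.53), and its interval for CV over FG TB spans 0.

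TRPM5, the calcium-activated channel that ends the type II transduction cascade, had the largest change of the tested members over LE in both papillae. Its probe set read 259, 697, 373 and 207 units in the CV TB of animals 1, 3, 4 and 5, against 51.3, 27.6, 28.3 and 41.1 units in their adjacent LE. The groups did not overlap, and within an animal TB were 5.04 to 25.2 times LE. This gave a log2 change of 3.26 ± 0.42 (limma, adjusted p = 5.19e-05), or 9.59-fold, higher in 4 of 4 animals. In FG TB the values had a lowest of 193, a median of 271 and a highest of 382 units, against 20.7, 39.8 and 62 units in the adjacent LE. These groups did not overlap either, with ratios of 4.13 to 14.1 within an animal. The log2 change was 2.89 ± 0.35 (limma, adjusted p = 2.26e-05), at least 6.95-fold, higher in 6 of 6 animals. The adjusted p stayed between 1.9e-06 and 0.0042 for FG over 12 alternative settings and passed the threshold in all of them. For CV it did so in all but the methods' t-test, which gave 0.0636.

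Across the first set, TRPM5 means fell into 2 levels, with CV TB at 384 ± 220 units (SD, n = 4) and FG TB at 273 ± 69.8 units (SD, n = 6), above LE next to FG at 39 ± 16.4 units (SD, n = 6) and LE next to CV at 37.1 ± 11.4 units (SD, n = 4). Neighbours within a level did not differ beyond their spread. CV and FG TB differed by 0.31 ± 0.40 on the log2 scale (95% interval −0.56 to 1.18, limma adjusted p = 0.855), where 0.871% of all probe sets were called. The LE groups differed by −0.07 ± 0.40 (95% interval −0.93 to 0.80, limma adjusted p = 0.953), where 1.26% of all were called.

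The top and bottom fractions divide the CV TB along its axis, with the taste pore at the top. TRPM5 read 681, 690, 485 and 443 units in the top fractions of animals 7 to 10 and 253, 255, 125 and 181 units in their bottom fractions. Every top fraction lay above every bottom fraction. The ratio of top to bottom was alike between animals, at 2.69, 2.70, 3.89 and 2.45. TRPM5 was thereby 1.53 ± 0.25 higher on the log2 scale (limma, adjusted p = 0.0382), or 2.89-fold. The call was lost without any of the 4 animals in turn (limma, adjusted p of 0.0854 to 0.173, log2 change of 1.39 to 1.61), and over all probe sets 0 or 1 were then called in place of 665.

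**Figure D2:**
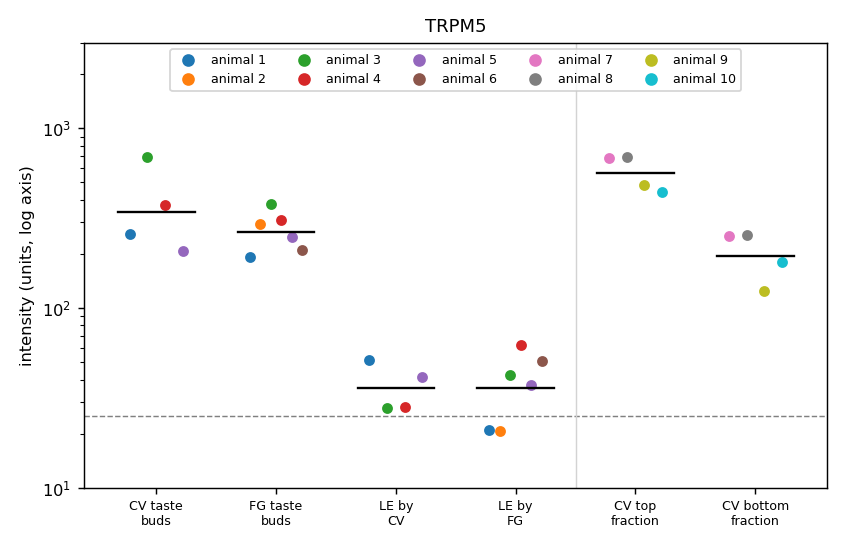
Intensity of the TRPM5 probe set on a log axis in every sample of the 6 groups, coloured by animal; black bars are geometric means and the dashed line marks 25 units. All TB values lie above all LE values, and the top fractions at 443 to 690 units lie above the bottom fractions at 125 to 255 units; the vertical line parts the array sets.

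The other genes of the type II transduction list, which holds taste signalling genes, sodium channels, a calcium pump and a transcription factor, were higher over LE as well. All 10 tested genes of the list were higher over LE in CV (median log2 change 6.06, against −0.08 over all tested probe sets) and in FG TB (median 6.47, against 0.05). Of all tested probe sets, 17.3% and 21.1% were called higher there. The study lists GNAT3, GNG13, GNB3, PLCB2 and SCN3A, at the least, as higher in TB on these same arrays. A probe set on its list was preferred here, so that the direction of such genes was not independent of these values. Examples, which are not the 4 largest changes, are the taste G protein alpha subunit GNAT3 (8.65 ± 0.28 in CV and 9.07 ± 0.23 in FG TB) and its gamma subunit GNG13 (7.49 ± 0.25 and 7.27 ± 0.20). The sodium channel SCN3A changed by 7.33 ± 0.39 and 8.55 ± 0.32. The phospholipase PLCB2 changed by 7.10 ± 0.42 and 6.68 ± 0.34, and ITPR3, the receptor that releases stored calcium, by 1.52 ± 0.41 and 3.58 ± 0.33. The change of TRPM5 was smaller than that of GNAT3, GNG13 and PLCB2 in both papillae. Mean levels in LE next to CV and next to FG were 37.1 and 39.0 units for TRPM5 and 4.756 and 6.129 units for GNAT3. They were 25.15 and 27.71 units for GNG13 and 54.23 and 56.98 units for PLCB2. The difference between genes, and the part of the background in it, was not tested. Between the fractions GNA14, a further G protein alpha subunit, was called (2.26 ± 0.37, limma adjusted p = 0.0382) and the other 9 tested genes were not, with a median of 0.92 for the 10 against 0.13 over all. The summed type II level was itself higher in the top, at 25581 to 32573 against 14559 to 19972 units, and its part in the difference of TRPM5 was not tested. Fibroblast markers went the other way, with a sum over 6 genes of 436.6 to 547 units at the top and 3284 to 6682 units at the bottom, and their part was not tested either. GNAT3 had a log2 value of 1.64 ± 0.31 there (limma, adjusted p = 0.0508).

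**Figure D3:**
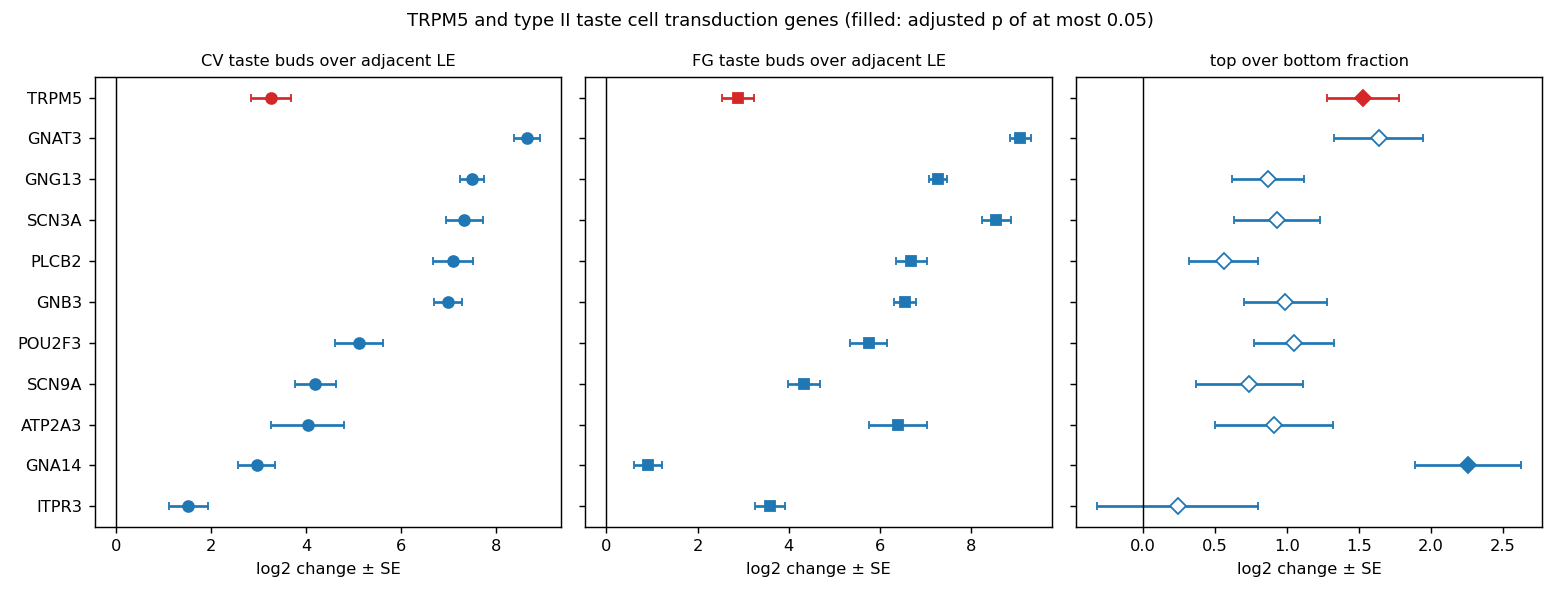
Log2 change ± standard error of TRPM5 (red) and the 10 tested type II transduction genes (blue) in CV TB over LE, FG TB over LE, and top over bottom fraction; filled symbols have an adjusted p of at most 0.05. Every symbol is filled over LE, and TRPM5 (1.53) and GNA14 (2.26) are filled between the fractions.

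TRPM4 is the closest relative of TRPM5, likewise opened by calcium, and is known from many tissues. It went the other way in the FG papillae. The lowest, median and highest values were 22.9, 43.8 and 59.4 units in FG TB and 41.6, 115 and 238 units in the adjacent LE. The ranges overlapped through animal 2, whose TB at 48.4 units lay above its own LE at 41.6 units. The difference on the log2 scale was −1.41 ± 0.43 (limma, adjusted p = 0.0181), at least 2.62-fold lower in TB, with 5 of 6 animals lower. Without animal 4 or without animal 6 the adjusted p in limma was 0.0662 and 0.054, and the methods' t-test lost the call as well (adjusted p = 0.067). In the CV papillae the 4 TB samples read 55.4, 95, 88.7 and 27.4 units and their LE 49.4, 174, 87.6 and 33.5 units, and these groups overlapped fully. The log2 difference was −0.24 ± 0.53 (95% interval −1.37 to 0.88, limma adjusted p = 0.749). The top fractions read 38.8, 75.3, 113 and 59.4 units and the bottom fractions 120, 82.1, 84.4 and 91.4 units, a difference of −0.49 ± 0.38 on the log2 scale (limma, adjusted p = 0.525).

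TRPM7 is an ion channel fused to a protein kinase that conducts magnesium and calcium and is expressed in most cells. Its brighter probe set, MmugDNA.19069.1.S1_at, was higher in FG TB than in LE. The lowest, median and highest values were 67.5, 171 and 364 units in FG TB and 10.5, 63.8 and 124 units in LE. The LE values fell into 2 clusters, with animals 1, 3 and 4 at 22.4, 20.3 and 10.5 units and animals 2, 5 and 6 at 124, 108 and 105 units. TRPM7 was higher in 5 of 6 animals, by 1.90 ± 0.61 on the log2 scale (limma, adjusted p = 0.0226), an estimated 3.06-fold. The change rests on the 3 dim LE samples, since the ratio was 9.00, 7.80 and 34.5 in animals 1, 3 and 4 and 0.544, 1.71 and 1.18 in animals 2, 5 and 6. Without animal 1, 3 or 4 the adjusted p in limma was 0.0822, 0.0916 and 0.12, and the methods' t-test lost the call as well (adjusted p = 0.176). The other probe set of the gene, MmugDNA.22600.1.S1_at, stayed at 3.81 to 11.5 units in 27 samples and read 61.3 units in the FG TB of animal 3, so that it gave no second measurement of the difference.

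In CV TB the same TRPM7 probe set read 67.4, 146, 114 and 329 units, above the 57.8, 56.2, 47.2 and 51.2 units of the adjacent LE in 4 of 4 animals and without overlap. The log2 difference of 1.39 ± 0.74 (95% interval −0.20 to 2.98) was not called (limma, adjusted p = 0.161), and passed narrowly with all LE samples as 1 group (adjusted p = 0.0497). The fractions read 318, 484, 339 and 441 units at the top and 342, 433, 236 and 309 units at the bottom. They overlapped, with a log2 difference of 0.27 ± 0.26 (95% interval −0.35 to 0.89, limma adjusted p = 0.607).

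TRPM8, the cold and menthol receptor, exceeded 25 units in the CV TB of 3 of 4 animals and in 1 FG sample of the first set. The CV TB read 10.3, 39.4, 25.9 and 328 units and the adjacent LE 4.64, 7.05, 6.41 and 12.6 units. CV TB lay above the LE of the same animal in 4 of 4, but 1 of them, that of animal 1, lay under 25 units and below the LE of animal 5. The value of animal 5 stood far above the others. TRPM8 was 2.59 ± 0.58 higher on the log2 scale (limma, adjusted p = 0.00371), at least 2.15-fold. The call was lost with values under 25 units raised to 25 and in the methods' t-test, and the log2 change ran from 1.10 to 3.06 and the adjusted p from 0.000613 to 0.123 over 9 alternatives. Without animal 3, 4 or 5 the probe set no longer passed the filter on dim values. FG TB read a lowest of 4.56, a median of 8.98 and a highest of 30.8 units against 4.71, 6.47 and 7.92 units in LE. Animal 5 was again the highest and the only FG sample above 25 units. The log2 difference was 0.71 ± 0.48 (limma, adjusted p = 0.246).

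Between the 2 papillae TRPM8 was higher in CV than in FG TB of the same animal in 4 of 4, by a ratio of only 1.04 in animal 1. The log2 difference was 2.02 ± 0.56, at least 2.08-fold, and was not called after adjustment (limma, adjusted p = 0.128). Animal 5 alone had both values at 25 units or more. In the fractions TRPM8 read 10.1, 12.3, 73.9 and 219 units at the top and 212, 32.7, 145 and 188 units at the bottom. The bottom was higher in 3 of 4 animals and the groups overlapped, with a log2 difference of −1.64 ± 0.71 (95% interval −3.36 to 0.08, limma adjusted p = 0.261). One nerve marker was higher over LE as well, and the other named nerve and Schwann cell markers were too dim to be tested there. The summed level, over 4 named genes, was 737.3, 2792, 997.4 and 971.3 units in the CV TB of animals 1, 3, 4 and 5 and 53.7 to 75.99 units in the adjacent LE. GAP43, a growth cone protein, made up most of it (693.3 to 2762 units in CV TB and 10.28 to 33.64 units in LE) and was the 1 of the 4 with a mean above 25 units in CV TB. The Schwann cell factor SOX10 read 7.163 to 11.54 units in CV TB and 13.28 to 22.11 units in LE. The calcium-binding protein S100B read 13.13 to 23.6 and 13.78 to 23.82 units, and PRPH, a filament protein of peripheral nerve, 6.276 to 11.01 and 6.627 to 9.33 units. The highest nerve sum and the highest TRPM8 value came from different animals, 3 and 5. In FG TB the sum was 200.4 to 507.6 units. The part of nerve or Schwann cells in the TRPM8 values was not tested.

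**Figure D4:**
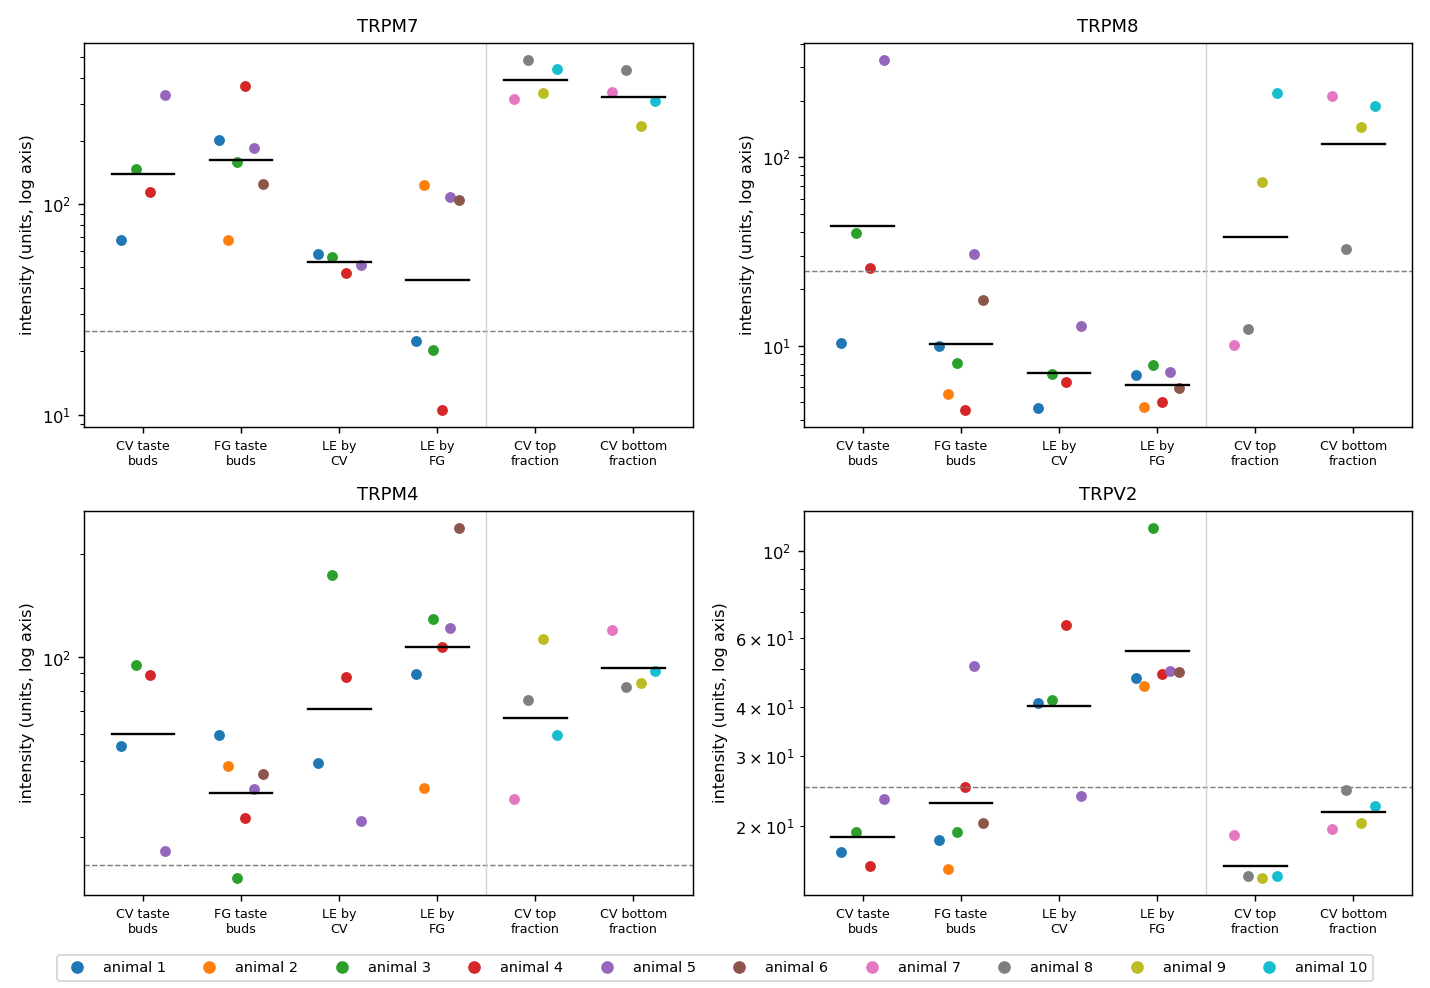
Intensity of the TRPM7, TRPM8, TRPM4 and TRPV2 probe sets used in the tests, on log axes, in every sample of the 6 groups, coloured by animal; black bars are geometric means and dashed lines mark 25 units. TRPM8 exceeds 25 units in 3 of 4 CV TB, 2 of 4 top fractions, 4 of 4 bottom fractions and 1 FG sample, the TRPM7 values of LE next to FG part into 3 low and 3 high samples, and TRPV2 is lower in most TB than in LE.

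TRPA1, the channel for pungent irritants, had 3 probe sets that did not behave alike. The brightest, MmugDNA.29863.1.S1_at, exceeded 100 units in all 28 samples, LE included. In FG TB its lowest, median and highest values were 1050, 1331 and 1764 units, and in the adjacent LE 125, 375 and 1331 units. Animal 1 alone had LE in the range of TB, at 1331 units, yet in 6 of 6 animals TB were above their own LE, by 1.33 to 14.0 times. The difference of 1.83 ± 0.39 on the log2 scale (limma, adjusted p = 0.0024) was an estimated 3.56-fold, and it was called under each of 12 alternatives (adjusted p of 0.00122 to 0.0478). In CV TB the values were 1998, 1164, 709 and 946 units against 620, 873, 941 and 959 units in LE. These groups overlapped, and the log2 difference was 0.42 ± 0.48 (95% interval −0.61 to 1.45, limma adjusted p = 0.526).

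The means of this TRPA1 probe set in TB were 1204 ± 561 units in CV (SD, n = 4) and 1393 ± 306 units in FG (SD, n = 6), and those of LE 848 ± 157 next to CV (SD, n = 4) and 500 ± 430 next to FG (SD, n = 6). The difference between the CV and FG effects was −1.41 ± 0.62 on the log2 scale (95% interval −2.74 to −0.08). It was not called after adjustment (limma, adjusted p = 0.301), so that the effects over LE are not shown to differ between papillae. The top fractions read 2285, 1047, 1815 and 2484 units and the bottom fractions 510, 723, 1631 and 1321 units. The top was higher in 4 of 4 animals while the groups overlapped, and the log2 difference of 0.94 ± 0.38 was not called (limma, adjusted p = 0.232).

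A second TRPA1 probe set, MmugDNA.20290.1.S1_at, was bright only in CV tissue. It read 9.55, 460, 574 and 118 units in the CV TB of animals 1, 3, 4 and 5, and no more than 14 units in FG TB and LE. In the fractions it read 484, 491, 16.5 and 831 units at the top and 571, 209, 7.30 and 577 units at the bottom. It was thus at background in animal 1 and, in both fractions, in animal 9, which were not low for the brightest probe set (1998 units in animal 1, 1815 and 1631 units in animal 9). Over the 12 samples of CV tissue, 4 from the first array set and 8 from the second, the log2 values of the probe sets correlated at −0.34, and over all 28 at 0.24. With 3 of 20 samples at 25 units it was not tested in the first set. Without the filter its log2 change over LE in CV TB was 4.28 ± 0.89 (limma, adjusted p = 0.00362), and in FG TB 0.38 ± 0.72 (adjusted p = 0.733). The top and bottom fractions differed by 0.67 ± 0.33 (limma, adjusted p = 0.315). The third probe set, MmugDNA.29712.1.S1_at, exceeded 25 units in 1 of 28 samples, the CV TB of animal 5 at 75.2 units. Which transcript or allele each probe set reads was not analysed here.

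**Figure D5:**
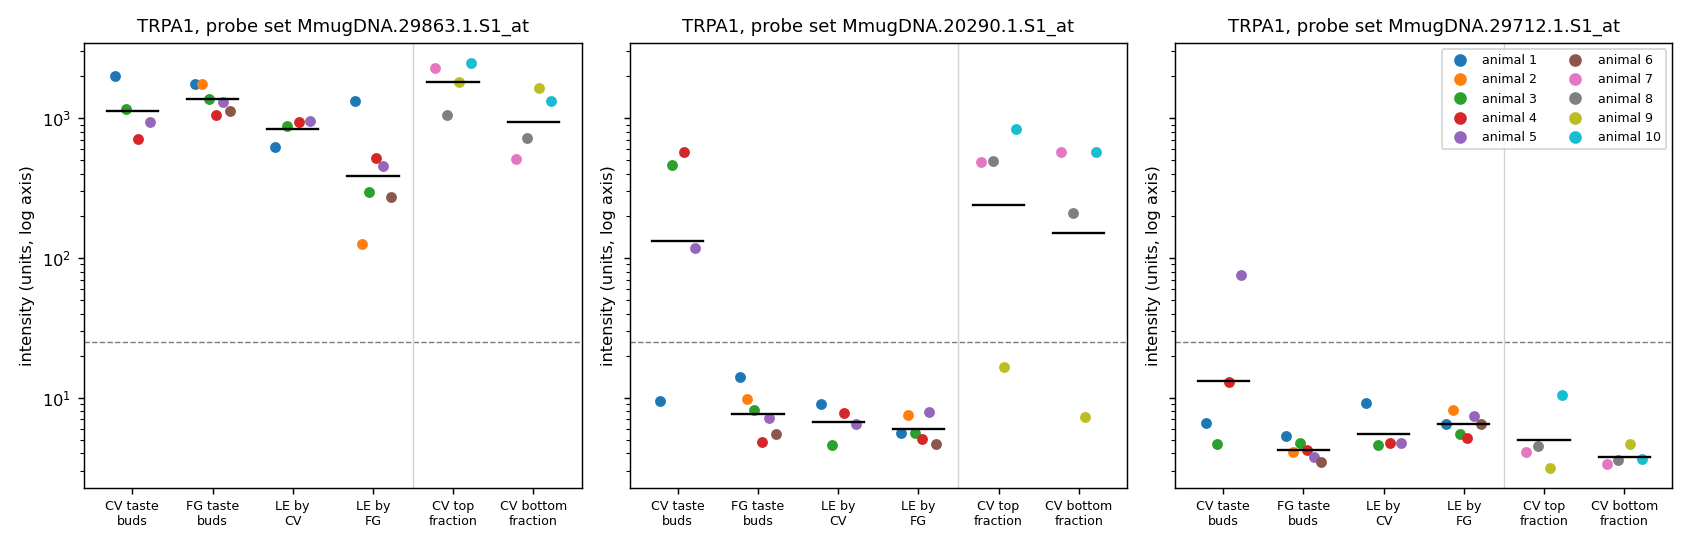
Intensity of the 3 TRPA1 probe sets on a shared log axis in every sample of the 6 groups, coloured by animal; black bars are geometric means and the dashed line marks 25 units. The probe set at the left is above 100 units in every sample, the middle one is above 25 units in CV TB and fractions other than those of animals 1 and 9, and the one at the right is above it in 1 sample.

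TRPV2, a channel opened by strong heat in rodents and also known from immune cells, was lower in TB than in LE. Its probe set MmugDNA.18445.1.S1_at read 17.2, 19.3, 15.8 and 23.4 units in CV TB and 40.9, 41.6, 64.6 and 23.7 units in the adjacent LE. The groups met without overlapping, since animal 5 had 23.4 and 23.7 units. TRPV2 was lower in 4 of 4 animals, by −1.10 ± 0.41 on the log2 scale (limma, adjusted p = 0.0472), at least 1.63-fold. The call was lost in 9 of 12 alternatives, among them without animal 1, 2, 3, 4 or 6 (adjusted p of 0.146, 0.0567, 0.0931, 0.251 and 0.0554), with a log2 change of −1.47 to −0.79 over the animals left out. In FG TB the lowest, median and highest values were 15.5, 19.8 and 50.8 units against 45.2, 49 and 114 units in LE. Animal 5, at 50.8 units, was the FG sample within the range of LE, and the LE of animal 3 at 114 units stood apart from the other 5 at 45.2 to 49.5 units. The log2 difference was −1.28 ± 0.33 (limma, adjusted p = 0.0076), at least 1.97-fold lower, in 5 of 6 animals, and −1.02 ± 0.36 without animal 3 (adjusted p = 0.0464). Of 12 alternatives the methods' t-test lost the call (adjusted p = 0.0513).

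All TB values of TRPV2 other than 2 in FG lay under 25 units, and the fractions read 14.7 to 24.7 units and were not tested. The other TRPV2 probe set, MmugDNA.9941.1.S1_at, reached 25 units in 3 of 28 samples, all of LE next to FG, with a range of 11.7 to 29.9 units. Of the immune cell markers, 2 of the 4 tested were lower in TB like TRPV2, and 2 were not called. Over all tested probe sets, 18.0% were called lower in CV and 20.2% in FG TB. The sum over 5 named genes was 3496 to 5159 units in LE next to CV and 770.3 to 2853 units in LE next to FG, against 227.5 to 513.2 units in CV TB and 327.6 to 850.5 units in FG TB. By their means, the 2 lower markers carried most of the sum in LE and in CV TB, but not in FG TB. CD68, a lysosomal protein of macrophages, and LYZ, lysozyme, were lower in TB, by −4.98 ± 0.62 and −3.88 ± 0.52 in CV and −3.05 ± 0.50 and −2.74 ± 0.43 in FG. PTPRC, the pan-leukocyte marker CD45, changed by −0.06 ± 0.92 in CV and 1.15 ± 0.75 in FG (limma, adjusted p of 0.967 and 0.234). Its mean in FG TB was 239 units, against 103.4 units for CD68 and 80.12 units for LYZ. CD14, a monocyte receptor, changed by −0.46 ± 0.37 and 0.36 ± 0.30 (limma, adjusted p of 0.357 and 0.352). The part of immune cells or of keratinocytes in the TRPV2 values was not tested.

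TRPV3 and TRPV4, warm-sensitive channels of keratinocytes, gave no signal above 25 units in any tissue, LE included. TRPV3 read 4.11 to 12.5 units and TRPV4 7.20 to 21.8 units. No difference between groups was tested for either, and these levels say only that the probe sets were dim on these arrays.

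The papilla types were compared within the 4 animals that gave both. None of the 6 tested members was called between CV and FG TB, between the LE groups or for the interaction of papilla and tissue, which is the CV effect over LE minus the FG effect. In limma 0.871%, 1.26% and 0.871% of all tested probe sets were called there. The second TRPA1 probe set, MmugDNA.20290.1.S1_at, was not among those tested. Its ratio of CV to FG TB was 0.683, 56.4, 118 and 16.5 in animals 1, 3, 4 and 5, with every FG value under 25 units. At an unadjusted p of 0.05, 1 member passed between CV and FG TB (TRPM8), 0 between the LE groups and 2 for the interaction, where 11.6%, 17.1% and 14.9% of all tested probe sets did. These 2 were TRPA1 and TRPM8, the latter with an interaction of 1.87 ± 0.76 (limma, adjusted p = 0.257). The remaining interactions on the log2 scale were 1.16 ± 0.68 for TRPM4, −0.51 ± 0.96 for TRPM7, 0.38 ± 0.55 for TRPM5 and 0.17 ± 0.52 for TRPV2. Between the LE groups TRPA1 had the lowest adjusted p, with 0.87 ± 0.46 higher next to CV (adjusted p = 0.345).

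Other genes of the TRP superfamily were taken from a list of 17, of which 13 had a named probe set and 5 were tested in the first set. Over LE, 3 of the 5 were higher in CV and 2 in FG TB, and 0 were lower. Of all tested probe sets, 17.3% were called higher and 18.0% lower in CV, and 21.1% and 20.2% in FG TB. PKD2L1, a polycystin channel that marks the sour-sensing type III taste cells, changed by 4.14 ± 0.44 in CV TB (limma, adjusted p = 8.91e-06) and 3.27 ± 0.36 in FG TB (adjusted p = 9.59e-06). It read 315.4 to 558.5 units in CV and 151.5 to 341.6 units in FG TB, against 12.38 to 41.63 units in LE. It was also higher in the top fraction, by 1.50 ± 0.25 (adjusted p = 0.0395), a value close to that of TRPM5, although the genes are known from different taste cell types. MCOLN3, a mucolipin channel of endosomes and lysosomes, was higher over LE in CV (2.21 ± 0.70, limma adjusted p = 0.0251) and FG TB (1.89 ± 0.57, adjusted p = 0.0178). It read 5.337 to 6.56 units in LE next to CV and 4.257 to 8.825 units next to FG. MCOLN3 therefore entered the test through TB alone, the tissue in which it was high. The TB values also reached background, at 8.7 to 127.2 units in CV and 4.661 to 74.93 units in FG. PKD2, the polycystin of primary cilia, was higher in CV TB (1.22 ± 0.44, limma adjusted p = 0.0449), and had 0.55 ± 0.36 in FG TB. In CV TB it read 20.27 to 78.39 units, with a mean of 34.97 and an SD of 28.95, against 10.13 to 16.51 units in the adjacent LE. The CV TB values of PKD2 thus reached under 25 units, and its call lay close to the threshold. The list had a median log2 change of 1.22 in CV and 0.55 in FG TB, against −0.08 and 0.05 over all tested probe sets.

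Genes that act on TRP channels were taken from a list of 15, of which 8 had a named probe set and 7 were tested. In each of CV and FG TB over LE, 4 were higher and 1 was lower, with list medians of 1.53 and 1.20 against −0.08 and 0.05 over all tested probe sets. Of all tested probe sets, 17.3% were called higher and 18.0% lower in CV, and 21.1% and 20.2% in FG TB. Nothing is read from the 1 lower gene. PIP5K1B makes the membrane lipid PIP2, which many TRP channels need to open. It rose by 4.41 ± 0.59 in CV and 4.53 ± 0.48 in FG TB, and by 1.86 ± 0.25 from the bottom to the top fraction (limma, adjusted p = 0.029), where it was the 1 of 6 tested that was called. The protein kinases C PRKCE and PRKCA, which phosphorylate TRP channels, rose by 4.03 ± 0.66 and 1.53 ± 0.55 in CV and by 2.91 ± 0.54 and 2.25 ± 0.45 in FG TB. F2RL1, a protease-activated receptor, rose by 1.67 ± 0.44 and 1.20 ± 0.36. BDKRB2, the bradykinin receptor, was the gene called lower, with −2.00 ± 0.61 in CV and −1.84 ± 0.50 in FG TB. It was at background in TB, with 4.798 to 7.505 units in CV and 4.526 to 8.543 units in FG. The LE values were 9.325 to 63.85 units next to CV and 9.142 to 51.31 units next to FG. BDKRB2 therefore entered the test through LE alone, the tissue in which it was high. The phospholipase PLCG1 had −0.17 ± 0.63 and 0.75 ± 0.51, and the calmodulin gene CALM3 0.23 ± 0.40 and 0.65 ± 0.33, neither called in either papilla.

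Genes whose pattern was most like that of a called member were ranked by the correlation of log2 intensity over 28 samples among 11494 genes. These correlations share the contrast between TB and LE, and the value over the 18 TB samples is given beside each. Both values also span the array sets, 20 and 8 samples over all and 10 and 8 within TB, so that likeness between genes and a shared difference between the array sets cannot be told apart. TRPM5 was followed most closely by MAN1C1 (0.96 over all samples, 0.76 within TB), GCNT2 (0.96 and 0.81), CYB5R1 (0.95 and 0.77), POU2AF3 (0.95 and 0.79) and C11orf53 (0.95 and 0.60). The likeness of TRPM7 was lower, led by FLVCR1 (0.86 and 0.77) and KLHL5 (0.85 and 0.66). TRPM8 was led by CSN2 (0.83 and 0.76) and EGFL6 (0.82 and 0.75), and TRPA1 by SLITRK6 (0.80 and 0.67) and B4GALT5 (0.79 and 0.46). TRPV2, of which all TB values but 2 in FG lay under 25 units, was led by LOC693895 (0.89 and 0.38) and AMOTL1 (0.88 and 0.50). TRPM4 had no close match, with SYTL1 (0.71 and 0.77) and AKR1A1 (0.71 and 0.79) at its head. Between members, TRPM5 and TRPM7 correlated at 0.69 over all samples and at 0.09 over the 12 samples of CV tissue of both array sets, and TRPM5 and TRPV2 at −0.79 and −0.58. All TRPV2 values in those 12 samples lay under 25 units, so that −0.58 relates TRPM5 to dim readings.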

How the data were processed

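The values used are intensities, 1 per probe set and array for 28 arrays, made by the authors in GeneSpring, where GC-RMA removed background and the arrays were quantile normalized. As deposited, the arrays still differ in median. They are on a linear scale in arbitrary units. The sources used here give neither software versions nor a genome build. Amplified RNA of laser-captured cells was hybridized, and the animal is the replicate.

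Samples were grouped by their labels into 6 conditions, and none was left out. Intensities were log2 transformed and fitted per probe set with limma 3.58.1 in R 4.3.3, where 4 or more of the fitted samples reached 25 units. One fit took the 20 samples of the first set and another the 8 of the second, each with the animal as a fixed block and Benjamini-Hochberg adjustment over all tested probe sets. The methods of the study pool the LE samples and use a t-test paired by animal, with a p of at most 0.05 and at least 5-fold. They describe no adjustment, whereas the t-test run here was adjusted and was not combined with pooled LE. Here LE was kept apart by papilla, and both choices of the study were alternatives, as were values raised to 25 units, no filter, no block, arrays centred on their medians, and each animal left out.

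The pairing by animal comes from the labels. Deviations from the group means correlated, on average, at 0.07, 0.05, 0.09, 0.08 and 0.12 within an animal and at −0.02, −0.01, −0.02, −0.02 and −0.04 between animals, for CV TB with LE, FG TB with LE, CV with FG TB, LE with LE, and top with bottom fraction.

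Probe sets were named by a supplementary table of the study (1997 used here, its names only) and otherwise by the annotation of the array, which gives 24956 probe sets 1 symbol, 361 several and 26707 none. A gene was represented by its probe set in that table and otherwise by its brightest. The table lists genes that the study chose as higher in TB than in LE on these same arrays. For a list gene named by it, the direction over LE was therefore not independent of these values. A gene under 25 units in all LE, such as GNAT3, entered the first fit through TB alone. All members were described. Of each list but that of type II genes, up to 4 genes with the largest called changes in a comparison were named. List members that were not called were added after their values were seen. Up to 5 genes most like a called member were named as well. The type II genes named over LE were examples and not the 4 largest changes. The members and lists were chosen with earlier results of these data known. The lists were markers of type I, II and III taste cells, differentiated and basal keratinocytes, fibroblasts, endothelial, immune, nerve and Schwann, serous gland and skeletal muscle cells, other TRP superfamily genes and TRP modulators. The fits were tested on simulated data. Arrays have no read depth, so that the number of animals and the background limit precision. Array correlations lay between 0.7316 and 0.9766.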

Additional observations from a re-analysis of the deposited data

Results flagged for a closer look

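Each member probe set was examined in each group where it reached 25 units at least once, and 3 of these 37 groups held a sample that stood apart from the rest by its gap on the log2 scale (Dixon's rule at the 95% level). The rule sets a sample apart by chance in about 1 in 20 groups that were not chosen by their values. These groups were chosen by their highest value, and that of TRPM7 below entered through its flagged sample alone. The rate therefore cannot be set against the 3 of 37. The second TRPA1 probe set, MmugDNA.20290.1.S1_at, read 16.5 units in the top fraction of animal 9 against 484 to 831 units in the other 3, and the bottom fraction of the same animal read 7.30 units. The dim TRPM7 probe set MmugDNA.22600.1.S1_at read 61.3 units in the FG TB of animal 3 against 3.81 to 5.41 units in the other 5. TRPV2 (MmugDNA.18445.1.S1_at) read 114 units in the LE next to FG of animal 3 against 45.2 to 49.5 units in the other 5. Both samples of animal 3 had the highest summed level of the 2 named skeletal muscle markers in their group. It was 1167 units in FG TB and 3679 units in LE. Both also had the highest nerve and Schwann cell sum of their group, at 507.6 and 339 units. The LE sample was further the highest of its group for fibroblast (4757 units), endothelial (1272 units) and serous gland markers (206.2 units). The FG TB sample was not the highest for these 3 lists. The part of muscle or of any other tissue in these values was not tested.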

How the results depend on the processing

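Of the alternative values for single members, 336 kept their direction and their side of the threshold, 26 lost the call, 1 gained it and 12 turned direction. With the animal left out as a block, that is without the pairing, the members called were unchanged, at 3 for CV TB over LE, 5 for FG TB over LE and 1 for top over bottom. The members called for CV TB over LE were 1 with values raised to 25 units, 0 by the methods' t-test (2 before adjustment) and 1 to 2 without any animal in turn. For FG TB over LE they were 2 by the methods' t-test (4 before adjustment) and 3 to 5 without any animal. For top over bottom they were 0 without the filter, 0 by the methods' t-test (1 before adjustment) and 0 without any animal. The loss without the filter came with 52024 probe sets tested in place of 21167.

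Every value that turned direction belonged to a difference that was not called. TRPM8 between the LE groups was −0.01 with values raised to 25 units, and TRPM5 there was 0.05 with centred arrays. With each animal left out in turn, TRPA1 in CV TB over LE ranged from −0.0045 to 0.69, TRPM7 between CV and FG TB from −0.36 to 0.34 and TRPM5 between the LE groups from −0.50 to 0.25. The interactions ranged from −0.08 to 0.55 for TRPV2, from −1.16 to 0.17 for TRPM7 and from −0.03 to 0.75 for TRPM5.

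Over all probe sets, 665 were called between the fractions with the block and 1033 without it, 66 without the filter, 0 by the methods' t-test (3543 at an unadjusted p under 0.05), and 0 to 1 without any animal. The methods' t-test called 3109 in place of 9242 for CV TB over LE, 6961 in place of 10795 for FG TB over LE, and 0 in place of 228 and of 331 for CV against FG TB and for the LE groups. Raising to 25 units gave 589 in place of 331 for the LE groups and 349 in place of 228 for the interaction. Without animal 1, 3, 4 or 5 the counts between papillae fell to 45 to 113 for TB, 58 to 203 for the LE groups and 12 to 99 for the interaction. Centring the arrays moved the median change of FG TB over LE from 0.0538 to 0.216 and that between the LE groups from 0.0228 to 0.134. No member was called or lost by it other than TRPV2 in CV TB.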

Other observations

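The type III taste cell genes, which serve sour taste and synapses, moved with the TRP superfamily gene PKD2L1 that is on the same list. Of 6 tested, 5 were higher in CV TB over LE and 5 in FG TB over LE, with median log2 changes of 5.11 and 3.29, and 1 (PKD2L1) was higher in the top fraction. For the counts in this section, 17.3% of all tested probe sets were called higher and 18.0% lower in CV TB over LE. In FG TB over LE these shares were 21.1% and 20.2%, and between the fractions 1.68% and 1.46%. Basal keratinocyte markers, with 3 tested, moved apart over LE. The integrin genes ITGB4 and ITGA6 were higher, by 3.26 ± 0.54 and 4.39 ± 1.13 in CV TB and by 2.85 ± 0.44 and 2.98 ± 0.92 in FG TB, while the epithelial transcription factor TP63 was lower in FG TB (−2.71 ± 0.67, limma adjusted p = 0.00583) and had −1.21 ± 0.82 in CV TB. Fibroblast markers had 1 of 5 higher over LE in each papilla and 4 of 5 lower in the top fraction.

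Of 2 tested type I taste cell markers, 1 was higher in CV TB and 1 lower in FG TB over LE. Of 3 serous gland markers, PIP, a secreted glycoprotein, was higher in CV TB over LE (3.38 ± 0.88, limma adjusted p = 0.00902) and had −0.31 ± 0.72 in FG TB. The endothelial markers PECAM1 and VWF and the muscle markers MYH2 and CKM were not called in either papilla (limma, adjusted p of 0.1 to 0.924).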
